A study of Mus musculus with 20 samples.

Results

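Immunoglobulin variable (V) and constant (C) genes were followed across 20 RNA libraries of mouse colon. Members were all genes that the deposited count tables annotate as IG_V_gene or IG_C_gene, without any use of their values. There were 231 of them among the 56748 genes of the chow table, and the 31184 genes of the high fat diet (HFD) table, which holds no gene without a read, included 194 of the 231. The chow members were 13 C genes and 218 V genes: 113 heavy chain V genes on chromosome 12, 102 kappa V genes on chromosome 6 and 3 lambda V genes on chromosome 16. Of the 231, 217 had at least 1 read in a chow library.

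The study asked how loss of Pcca changes transcription in the colon. Pcca encodes a subunit of the mitochondrial carboxylase that acts on propionyl-CoA. There were 5 groups of 4 libraries: HFD Vill, HFD ff, Chow Vill, Chow Alb and Chow ff. All mice carried floxed Pcca alleles (ff). Vill mice also carried Villin-Cre, which acts in the intestinal epithelium, Alb mice carried Albumin-Cre, which acts in the liver, and ff littermates carried no Cre and served as controls. HFD mice were male, ate the diet (60% of energy from fat) from 6 weeks of age for 12 weeks, and were killed at 18 weeks. Chow mice were killed at 9 weeks, and every mouse was fasted for 4 hours. RNA came from whole flushed colon tissue and was selected by its poly-A tail. Neither promoter is meant to act in the B cells and plasma cells that transcribe immunoglobulin genes, so in both lines the deletion was aimed at other cells.

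An antibody is made of heavy and light chains, each with a variable and a constant region. A developing B cell joins a single V gene to short joining segments, and class switching later exchanges the heavy constant gene, from Ighm and Ighd of resting B cells to Igha, the IgG genes (Ighg1, Ighg2b, Ighg2c, Ighg3) or Ighe. Plasma cells below the gut epithelium secrete dimeric IgA, which the joining chain (Jchain) holds together and the epithelial receptor Pigr carries into the lumen. Each plasma cell clone transcribes its own V genes at a high level. In bulk tissue, fewer cells of a type and less RNA per cell cannot be told apart.

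The sequences that matter for reading these counts are those of near copies, because a read that fits several V genes may be lost or misplaced. Of the 218 V genes, 104 had a neighbour in their own locus with at least 95% identity over the V exon, and the median identity to the nearest neighbour was 94.7%. A single heavy chain pair, Ighv1-62-2 and Ighv1-71, had identical V exons. The kappa genes that passed 10% of kappa V reads in the most libraries, Igkv1-117 (chromosome 6, 68098030 to 68098811, plus strand) and Igkv1-110 (68247469 to 68248251, plus strand), differed at 10 of 313 aligned bases, all within the 300 bases shown here from the 3′ end of the exon. The lambda genes Iglv1 (chromosome 16, 18903767 to 18904250, minus strand) and Iglv2 (19079151 to 19079609, minus strand) differed at 9 of 305 bases, 8 of them among those shown. Coordinates are those of the deposited tables (mm39). The sequences are GENCODE M21 transcripts (GRCm38), matched by Ensembl gene ID, and capitals mark the bases that differ within each pair.
Igkv1-117: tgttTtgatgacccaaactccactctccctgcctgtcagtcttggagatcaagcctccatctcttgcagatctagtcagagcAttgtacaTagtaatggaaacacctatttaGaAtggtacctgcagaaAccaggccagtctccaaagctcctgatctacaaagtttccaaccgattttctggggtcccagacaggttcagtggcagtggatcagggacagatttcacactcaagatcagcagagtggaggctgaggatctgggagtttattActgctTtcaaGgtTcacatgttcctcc
Igkv1-110: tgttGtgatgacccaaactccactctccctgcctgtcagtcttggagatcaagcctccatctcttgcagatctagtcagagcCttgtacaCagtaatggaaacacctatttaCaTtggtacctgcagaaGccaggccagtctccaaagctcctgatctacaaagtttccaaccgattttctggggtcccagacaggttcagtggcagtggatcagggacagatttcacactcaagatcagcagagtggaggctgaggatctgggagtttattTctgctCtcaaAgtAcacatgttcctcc
Iglv1: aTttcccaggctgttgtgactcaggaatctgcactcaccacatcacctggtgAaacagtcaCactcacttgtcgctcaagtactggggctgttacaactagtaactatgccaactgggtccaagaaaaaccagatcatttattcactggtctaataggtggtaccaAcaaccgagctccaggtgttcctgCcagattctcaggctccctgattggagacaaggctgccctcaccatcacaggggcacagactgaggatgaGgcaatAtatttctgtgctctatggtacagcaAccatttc
Iglv2: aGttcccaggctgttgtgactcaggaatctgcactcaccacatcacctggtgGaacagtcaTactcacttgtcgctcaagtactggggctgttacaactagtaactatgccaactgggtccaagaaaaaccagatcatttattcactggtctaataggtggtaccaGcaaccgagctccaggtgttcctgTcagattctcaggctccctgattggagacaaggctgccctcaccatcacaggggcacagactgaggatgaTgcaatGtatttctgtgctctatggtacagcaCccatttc

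The lambda constant genes Iglc2 and Iglc3 were near copies as well, at 96.2% identity over the coding exon (12 differing positions of 315), and are shown because each joins a different lambda V gene. Iglc1 was 73.4% identical to Iglc2. The last 300 aligned bases are shown, and capitals mark the 11 differing positions among them.
Iglc2: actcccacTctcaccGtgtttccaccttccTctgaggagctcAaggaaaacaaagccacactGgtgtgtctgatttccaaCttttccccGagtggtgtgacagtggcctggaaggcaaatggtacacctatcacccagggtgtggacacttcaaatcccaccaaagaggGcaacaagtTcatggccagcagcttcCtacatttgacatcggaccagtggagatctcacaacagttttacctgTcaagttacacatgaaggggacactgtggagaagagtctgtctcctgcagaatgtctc
Iglc3: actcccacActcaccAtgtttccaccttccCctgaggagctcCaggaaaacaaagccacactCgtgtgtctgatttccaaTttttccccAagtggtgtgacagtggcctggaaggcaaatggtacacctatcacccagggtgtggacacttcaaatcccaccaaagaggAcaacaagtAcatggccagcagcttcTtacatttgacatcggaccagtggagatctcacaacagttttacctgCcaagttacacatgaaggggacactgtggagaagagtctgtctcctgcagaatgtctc

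Heavy chain V genes that led chow libraries were unlike each other. Ighv1-81, Ighv9-3, Ighv3-6 and Ighv8-5 shared between 54.5% and 68.1% of aligned bases of the V exon. Ighv8-5 had a closer relative in Ighv8-8, at 96.2%. Their last 120 coding bases are shown with the codon of the conserved cysteine that opens the third complementarity-determining region in capitals. Only 6 to 10 germline bases follow that codon, because the rest of that region comes from the joined segments.
Ighv1-81: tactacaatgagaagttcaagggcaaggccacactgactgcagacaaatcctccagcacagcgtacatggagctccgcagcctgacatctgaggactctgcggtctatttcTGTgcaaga
Ighv9-3: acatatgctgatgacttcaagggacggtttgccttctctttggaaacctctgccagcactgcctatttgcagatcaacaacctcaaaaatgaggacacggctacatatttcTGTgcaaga
Ighv3-6: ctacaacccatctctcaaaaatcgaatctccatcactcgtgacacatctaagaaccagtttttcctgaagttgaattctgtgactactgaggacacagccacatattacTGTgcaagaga
Ighv8-5: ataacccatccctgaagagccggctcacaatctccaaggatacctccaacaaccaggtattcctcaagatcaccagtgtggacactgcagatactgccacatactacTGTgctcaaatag

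The libraries held 16881567 to 24423757 reads in genes on HFD and 27857056 to 40385785 on chow, and no pair of libraries was identical. Levels are given as CPM, read counts relative to the library size after scaling between libraries. Pcca, the targeted gene, was at 34.0, 37.3, 33.2 and 33.6 CPM in HFD Vill and 29.9, 53.7, 32.5 and 59.5 CPM in HFD ff. The libraries labelled HFD ff 1 and HFD ff 3 thus lay below all 4 HFD Vill libraries, against their label, and HFD ff 2 and HFD ff 4 above them. On chow Pcca was at 27.7 to 33.6 CPM in Vill, 38.9 to 58.3 CPM in Alb and 39.5 to 57.2 CPM in ff, so the Vill and ff ranges did not overlap there. HFD libraries had 1458 to 2756 reads on the Y-linked Ddx3y and 0 to 12 on Xist, whereas chow libraries had no Ddx3y read and 22486 to 59322 reads on Xist. Diet, age, sex and table therefore differ together, and levels across diets are given side by side without a test. All 7 colon epithelium markers had reads, and their summed level was 5421 to 15177 CPM on HFD and 5839 to 25487 CPM on chow. The same libraries labelled HFD ff 1 and HFD ff 3 carried the ileal gene Fabp6 at 25.6 and 18.0 CPM, against 0.666 to 5.70 CPM in the other 18 libraries, so HFD comparisons are given with and without them. Chow Alb 2 carried the squamous keratin Krt5 at 39.7 CPM, against at most 0.440 CPM elsewhere.

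Igha, the constant gene of IgA (chromosome 12, 113218450 to 113223856), took most heavy chain constant reads in every library. It stood at 177, 68.7, 377 and 234 CPM in HFD Vill colons and at 63.0, 259, 158 and 133 CPM in HFD ff colons. On chow the values were 666, 1642, 1825 and 2138 CPM in Vill, 782, 1311, 1176 and 2509 CPM in Alb and 3511, 1212, 944 and 3256 CPM in ff. Within each diet the groups overlapped. Across diets they did not: the highest HFD library lay at 377 CPM and the lowest chow library at 666 CPM, or 384 and 634 CPM with plain library totals. Igha averaged 214 ± 128 CPM in HFD Vill and 153 ± 81.0 CPM in HFD ff (SD, n = 4 each), and 1567 ± 635, 1445 ± 744 and 2231 ± 1339.6 CPM in Chow Vill, Chow Alb and Chow ff.

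Igkc, the only kappa constant gene (chromosome 6, 70703419 to 70703950), was the other C gene whose diets did not overlap. It stood at 87.0, 39.2, 301 and 208 CPM in HFD Vill and 41.3, 199, 90.0 and 94.6 CPM in HFD ff. On chow it stood at 357, 952, 1063 and 865 CPM in Vill, 375, 789.6, 449.7 and 1078 CPM in Alb and 1251, 649, 547 and 1309 CPM in ff. The highest HFD library had 301 CPM and the lowest chow library 357 CPM. Besides Igha and Igkc, the V genes Igkv1-117, Ighv1-81, Ighv3-6 and Ighv1-18 had every HFD library below every chow library. These were 6 of the 194 members listed in both tables, beside 1.05% of all genes in both, and 0 members lay the other way. The tables were scaled separately. Igkv1-117 was at most 18.1 CPM on HFD and at least 26.95 CPM on chow, whereas Ighv1-18 was separated by little, at most 1.38 CPM on HFD and at least 1.44 CPM on chow. Per kilobase of gene length, Igkc exceeded Igha in every group: it averaged 298 ± 222 CPM per kb in HFD Vill and 1765 ± 745 in Chow ff, and Igha 80.3 ± 48.1 and 836 ± 502 CPM per kb in those groups.

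Ighm and Ighd encode the IgM and IgD heavy chains, the forms that resting B cells carry. Ighm was at 8.88, 2.53, 29.3 and 62.4 CPM in HFD Vill and 7.87, 41.4, 9.59 and 32.3 CPM in HFD ff. On chow Ighm was at 13.1, 112, 91.2 and 24.2 CPM in Vill, 6.46, 33.4, 16.6 and 104 CPM in Alb and 96.5, 16.8, 37.6 and 158 CPM in ff. Unlike Igha, Ighm overlapped between diets. Ighd split each group further, at 3.11, 0.230, 12.3 and 26.2 CPM in HFD Vill and 0.0874, 22.3, 0.936 and 16.6 CPM in HFD ff. On chow it was at 0.771, 35.7, 29.7 and 1.26 CPM in Vill, 3.13, 8.24, 0.472 and 43.0 CPM in Alb and 33.2, 0.597, 15.2 and 54.8 CPM in ff. Every group thus held libraries under 4 CPM and libraries over 12 CPM of Ighd.

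Among the IgG constant genes Ighg2b had the highest mean in every group, on the scale of CPM per kb as well as in reads. It averaged 9.01 ± 11.1 CPM in HFD Vill and 8.21 ± 7.13 CPM in HFD ff, and 49.6 ± 39.0, 45.6 ± 52.5 and 51.2 ± 34.0 CPM in Chow Vill, Chow Alb and Chow ff. Ighg1 ranged from 0.643 to 3.72 CPM in HFD Vill and 0.175 to 3.67 CPM in HFD ff, and on chow from 7.12 to 32.0 CPM in Vill, 0.590 to 18.0 CPM in Alb and 2.40 to 16.4 CPM in ff. Ighg2c and Ighg3 reached at most 31.2 and 6.90 CPM in the 20 libraries. Ighe, the constant gene of IgE, had 1 read over the 4 HFD Vill libraries and 7 over the HFD ff libraries, and 26, 11 and 44 reads in Chow Vill, Chow Alb and Chow ff. Iglc4 had at most 4 reads in any group and none in HFD ff or Chow Alb.

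**Figure D1:**
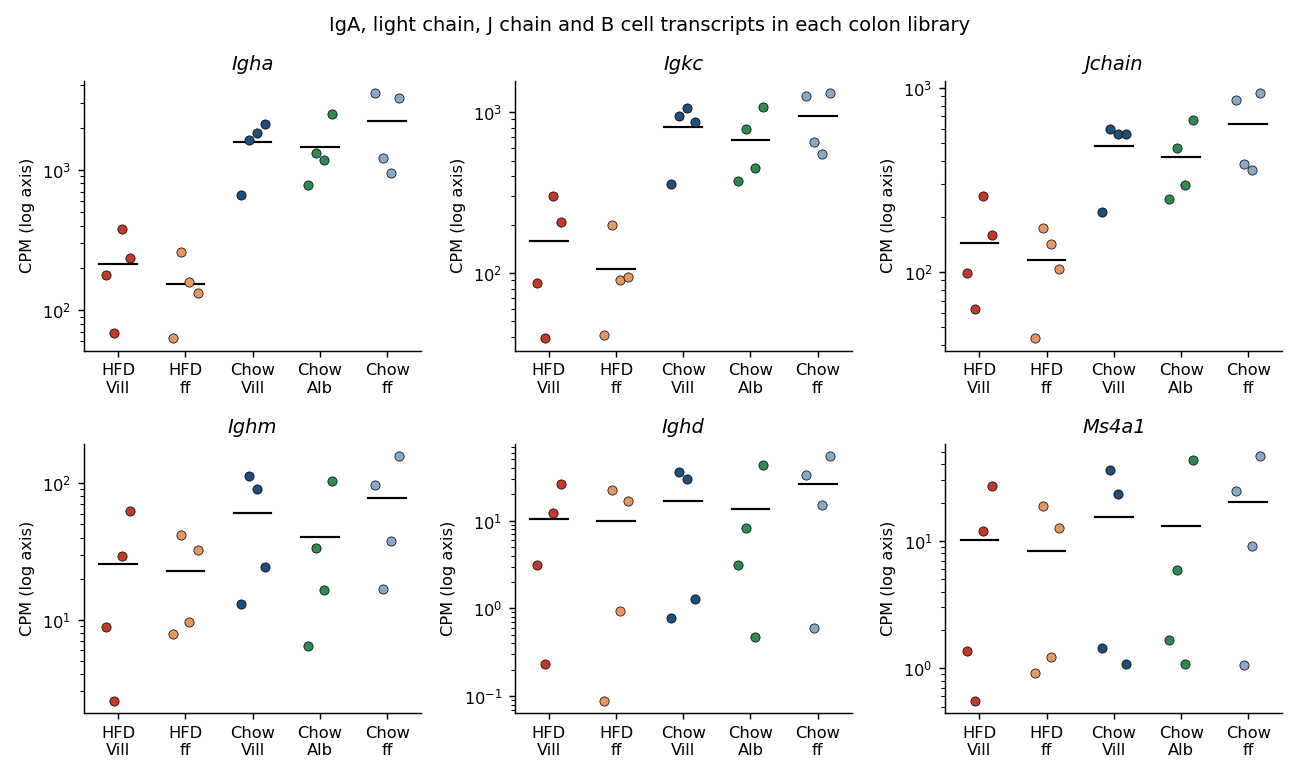
CPM on a log axis for 6 genes, with each point a library and each line the group mean (4 libraries per group). Igha, Igkc and Jchain lie lower in the HFD groups than in most or all chow libraries, whereas Ighm, Ighd and Ms4a1 spread widely within every group.

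Genes that act with the immunoglobulin genes were read alongside. Jchain was at 98.5, 62.6, 257 and 158 CPM in HFD Vill and 43.6, 174, 142 and 104 CPM in HFD ff. On chow it was at 211, 594, 562 and 562 CPM in Vill, 247, 473, 297 and 669.5 CPM in Alb and 855, 385, 359 and 932 CPM in ff, and Chow Vill 1 and Chow Alb 1 lay below the highest HFD library. Pigr, the receptor that exports IgA, overlapped between diets at 2786 to 6060 CPM on HFD and 3187 to 6648 CPM on chow. Sdc1, which plasma cells and colon epithelium share, was at 188 to 350.1 CPM on HFD and 201 to 310 CPM on chow. The plasma cell genes Mzb1 and Tnfrsf17 never exceeded 1.87 and 3.29 CPM.

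Igha and Jchain moved together across libraries. On the log2(CPM + 1) scale Pearson's r was 0.965 and Spearman's rho 0.958 over 12 chow libraries (permutation p = 2.0e-05 each, the smallest that 100000 resamples can give, adjusted p = 4.0e-05 over 4 relations). Over 8 HFD libraries r was 0.965 (exact permutation p = 0.000694, adjusted 0.000694) and rho 0.929 (exact permutation p = 0.00223, adjusted 0.00223). Without the 2 libraries farthest from the median of Igha, r was 0.939 and rho 0.927 on chow. On HFD r was then 0.924 (exact permutation p = 0.0278) and rho 0.83 (exact permutation p = 0.0583), so the rank correlation there no longer passed the threshold. Ighd moved with Ms4a1, the gene of the B cell surface protein CD20, at r = 0.983 and rho = 0.965 on chow (permutation p = 2.0e-05 each, adjusted 4.0e-05). On HFD r was 0.972 (exact permutation p = 0.000149, adjusted 0.000198) and rho 0.976 (exact permutation p = 0.000397, adjusted 0.000529). Without the 2 farthest libraries r was 0.979 and rho 0.939 on chow, and r 0.959 and rho 1.00 on HFD.

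Ms4a1 divided the libraries of each group as Ighd did. It was at 1.36, 0.551, 12.0 and 26.8 CPM in HFD Vill and 0.918, 18.7, 1.23 and 12.5 CPM in HFD ff. On chow it was at 1.45, 35.7, 23.5 and 1.07 CPM in Vill, 1.67, 5.90, 1.09 and 43.4 CPM in Alb and 24.5, 1.07, 9.08 and 46.4 CPM in ff. The summed level of 17 B cell genes ranged from 18.6 to 255 CPM on HFD and from 29.9 to 529 CPM on chow. The summed level of 9 lymphoid follicle genes ranged from 38.6 to 136 CPM on HFD and from 37.7 to 277 CPM on chow. The labels do not record whether a piece held follicles, and the part of these genes in the isotype shares was not tested.

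IgA dominated the heavy chain constant reads. The Igha share was 91.3, 92.9, 87.3 and 64.3% in HFD Vill and 87.9, 77.1, 79.7 and 69.0% in HFD ff. On chow it was 93.6, 86.2, 88.4 and 95.6% in Vill, 92.5, 95.7, 95.3 and 89.0% in Alb and 93.0, 95.3, 91.1 and 91.1% in ff. The lowest shares were in HFD Vill 4 and HFD ff 4, where Ighm took 17.1% and 16.8% of the reads and Ighd 7.20% and 8.64%. The 95% Wilson intervals of these shares, which cover counting error only, reached at most 1.58 points to either side for Igha, less than the spread between libraries. The Ighm share averaged 7.97 ± 6.26% in HFD Vill and 11.2 ± 4.94% in HFD ff (SD, n = 4 each), and 3.31 ± 2.24%, 2.06 ± 1.29% and 2.99 ± 1.35% in Chow Vill, Chow Alb and Chow ff.

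The combined share of the 4 IgG genes was 2.50, 3.42, 3.07 and 11.3% in HFD Vill and 1.04, 3.86, 15.0 and 5.53% in HFD ff. In chow colons it was 4.47, 5.96, 5.70 and 3.21% in Vill, 6.40, 1.21, 3.29 and 5.82% in Alb and 3.53, 3.28, 3.75 and 2.90% in ff. The highest share was in the library labelled HFD ff 3, where Ighg2b alone took 8.91% and Ighg2c 5.72%. That library also had the highest summed level of 7 T cell genes (51.1 CPM, against 4.87 to 33.2 CPM in the other 19) and carried Fabp6, and the part of other tissue in this share was not tested.

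No test of an isotype or lambda share between genotypes passed the threshold. The mean Igha share was 5.54 points higher in HFD Vill than in HFD ff (84.0 ± 13.3% and 78.4 ± 7.77%, exact permutation p = 0.514), and 1.68 points lower in Chow Vill than in Chow ff (91.0 ± 4.37% and 92.7 ± 2.00%, exact permutation p = 0.514). Chow Alb and Chow ff differed by 0.47 points (93.1 ± 3.13% and 92.7 ± 2.00%, exact permutation p = 0.800), and Chow Vill lay 2.14 points below Chow Alb (exact permutation p = 0.457). Of the 12 exact permutation tests of shares (2-sided, 70 assignments, smallest possible p = 0.0286), the smallest p was 0.0857, for the lambda share on HFD, and every adjusted p was at least 0.724. These p-values miss the threshold and do not show that the shares are alike. Without the libraries labelled HFD ff 1 and HFD ff 3, the Igha share was 10.9 points higher in HFD Vill than in HFD ff (84.0% and 73.0%, exact permutation p = 0.400), and the lambda share 4.07 points lower (7.11% and 11.2%, exact permutation p = 0.133).

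**Figure D2:**
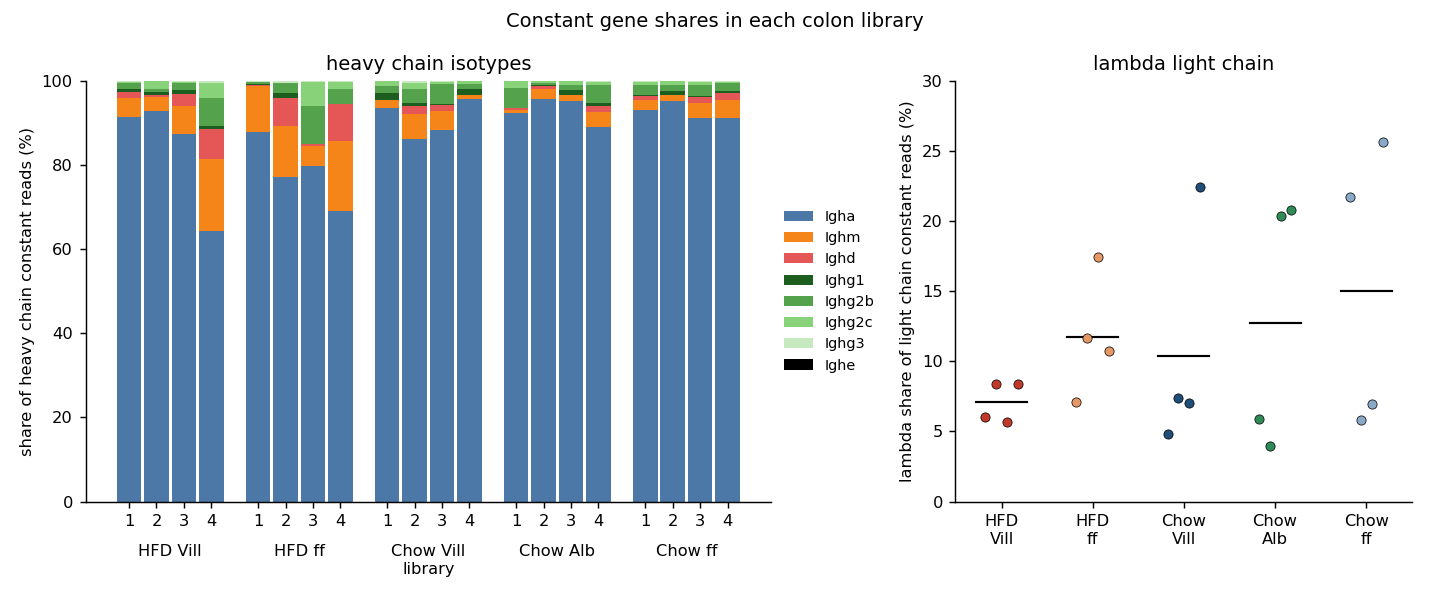
Left, stacked shares (%) of the 8 heavy chain constant genes among their reads in each library. Right, the lambda share (%) of light chain constant reads, with points for libraries and lines for group means. Igha takes 64.3% to 95.7% of each bar, and lambda shares on chow fall either under 8% or above 20%.

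Lambda light chains showed a split that did not follow genotype. The lambda share of light chain constant reads was 6.00, 8.38, 5.66 and 8.41% in HFD Vill and 7.08, 11.6, 17.4 and 10.7% in HFD ff. In chow colons it was 4.84, 7.37, 7.01 and 22.4% in Vill, 5.89, 3.94, 20.4 and 20.8% in Alb and 21.7, 5.81, 6.99 and 25.7% in ff. The 5 chow libraries above 20% were Chow Vill 4, Chow Alb 3, Chow Alb 4, Chow ff 1 and Chow ff 4, so each chow group held at least 1. The group means overlapped within their spread in all 4 comparisons, and on HFD the mean was 4.61 points lower in Vill (7.11 ± 1.49%) than in ff (11.7 ± 4.29%, exact permutation p = 0.0857, adjusted p = 0.724). The library labelled HFD ff 3, with Fabp6 and the highest T cell level, had the highest share there.

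In 3 of those 5 libraries (Chow Vill 4, Chow Alb 3 and Chow ff 4) Iglv2 had more reads than Iglv1. Iglv2 is mostly joined to Iglc2 in mouse lambda chains, whereas Iglv1 joins Iglc1 or Iglc3. Iglv2 had 25, 11, 37 and 27 reads in HFD Vill and 0, 76, 15 and 4 reads in HFD ff. On chow it had 2, 265, 291 and 2870 reads in Vill, 172, 379, 1789 and 2732 reads in Alb and 2509, 26, 11 and 7954 reads in ff. Iglc2 had 125, 993, 702 and 4419 reads in Chow Vill, 361, 790, 2436 and 3937 reads in Chow Alb and 4774, 361, 284 and 12743 reads in Chow ff. The largest counts of both genes were in Chow ff 4, which had Iglv2 at 226 CPM and Iglc2 at 362 CPM. Iglc2 made up 80.1% of lambda constant reads there, 76.7% in Chow Alb 3 and 67.6% in Chow Vill 4, and between 19.2% and 62.8% in the other 17 libraries.

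Iglv1 had 98, 53, 213 and 203 reads in HFD Vill and 57, 346, 311 and 90 reads in HFD ff. On chow it had 344, 1479, 2210 and 1936 reads in Vill, 210, 421, 783 and 3964 reads in Alb and 5954, 666, 930 and 2445 reads in ff. The summed reads of Iglc1 and Iglc3 lay near those counts, at 440, 2075, 2741 and 2115 in Chow Vill, 314, 469, 740 and 5021 in Chow Alb and 7242, 914, 1135 and 3162 in Chow ff. Iglc2 reads exceeded Iglv2 reads in all 20 libraries, and where Iglv2 was nearly absent, as in Chow Vill 1 with 2 reads, Iglc2 still had 125. Iglc2 and Iglc3 are the near copies printed above, and how reads shared by them were assigned was not tested. Iglv3, the remaining lambda V gene, had no read on chow.

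**Figure D3:**
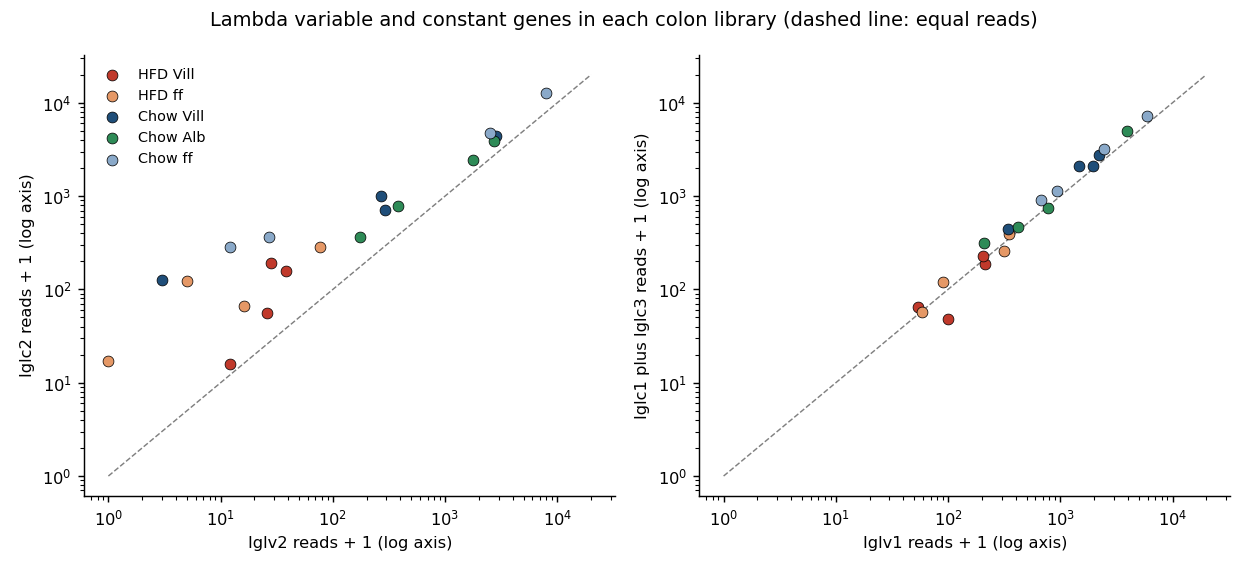
Reads plus 1 on log axes for Iglv2 against Iglc2 (left) and for Iglv1 against the sum of Iglc1 and Iglc3 (right), with each point a library and a dashed line at equal reads. The points on the right lie near the line over the whole range, while on the left Iglc2 exceeds Iglv2 most where Iglv2 is low.

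The heavy chain gene Ighv9-3 (chromosome 12, 114104312 to 114104742) was high in the same 3 libraries that Iglc2 dominated. It took 1.26, 2.76, 1.34 and 20.1% of heavy V reads in Chow Vill, 4.05, 0.954, 24.8 and 10.9% in Chow Alb and 10.2, 1.26, 1.32 and 26.1% in Chow ff. On HFD it took 1.63, 2.61, 1.54 and 3.58% in Vill and 2.04, 3.68, 5.89 and 4.38% in ff. The libraries above 20% were Chow Vill 4, Chow Alb 3 and Chow ff 4, and the other 2 with a high lambda share, Chow Alb 4 and Chow ff 1, followed at 10.9% and 10.2%. All remaining libraries lay under 6%. This coincidence was noticed in the data and has no test. Bulk counts do not show which heavy and light chains come from the same cell.

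V genes were used unevenly and differently by each library. Of the heavy V genes 11 took over 10% of the V reads of their chain in at least 1 library, as did 12 kappa genes. Of these, 3 heavy and 9 kappa genes did so in a single library. Only 3 heavy genes (Ighv1-81, Ighv3-6 and Ighv9-3, in 5 libraries each) and 2 kappa genes (Igkv1-117 in 14 and Igkv1-110 in 9) passed 10% in 5 or more libraries. Over all 20 libraries 43 of the 218 V genes had reads in every library.

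Ighv1-81 (115883899 to 115884332) was the most read heavy V gene in 5 of 12 chow libraries and in 0 of 8 HFD libraries. It took 1.19, 0, 1.08 and 0.832% of heavy V reads in HFD Vill and 0, 0.722, 3.54 and 0.684% in HFD ff. On chow it took 23.8, 24.3, 6.03 and 5.95% in Vill, 36.5, 2.70, 9.43 and 3.38% in Alb and 8.79, 14.1, 19.5 and 4.11% in ff. The highest HFD library, at 3.54%, lay above 2 of the 12 chow libraries. Low and high libraries occurred in every chow group.

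Ighv3-6 (114251772 to 114252202) reached 41.7% in Chow Alb 2 and 22.9% in the library labelled HFD ff 1. Its shares were 8.00, 2.61, 3.30 and 2.41% in HFD Vill and 22.9, 5.56, 2.02 and 2.19% in HFD ff, and 3.39, 4.13, 4.35 and 1.24%, 5.65, 41.7, 11.7 and 16.6% and 1.85, 2.52, 5.84 and 14.3% in Chow Vill, Chow Alb and Chow ff. Ighv8-5 (115031180 to 115031622) was high in 2 libraries of different genotypes, with 0.503, 32.6, 2.20 and 1.28% in Chow Alb and 36.0, 0.108, 0 and 1.30% in Chow ff. Its highest share was 1.85% in Chow Vill and 0.816% on HFD. Ighv1-53 was the leading heavy gene of HFD ff 4 at 27.2%.

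Among kappa genes, Igkv1-117 had the broadest use. It took 16.9, 4.66, 7.46 and 19.0% of kappa V reads in HFD Vill and 12.2, 9.67, 10.1 and 3.86% in HFD ff. On chow it took 23.1, 24.6, 18.9 and 10.3% in Vill, 27.8, 32.8, 11.8 and 6.90% in Alb and 14.8, 17.3, 31.5 and 9.62% in ff. Its near copy Igkv1-110 took 8.43, 25.4, 11.6 and 6.99% in HFD Vill and 16.2, 14.8, 21.1 and 6.64% in HFD ff. On chow Igkv1-110 took 13.5, 9.86, 8.57 and 17.3% in Vill, 36.1, 1.66, 6.21 and 6.37% in Alb and 8.66, 32.1, 6.83 and 9.88% in ff. In Chow Alb 2 Igkv1-117 stood at 32.8% and Igkv1-110 at 1.66%.

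Other kappa genes led 1 or 2 libraries each. Igkv6-15 (70383453 to 70383976, minus strand) took 43.0% in Chow Alb 2, the library with Ighv3-6 at 41.7%, and 19.8% in Chow Alb 4, but 0.349% in Chow Alb 1. Igkv10-96 took 31.2% in Chow ff 1, which also had Ighv8-5 at 36.0%. Igkv4-70 took 29.5% in Chow Alb 3 and at most 2.09% in the other 19 libraries. Igkv16-104 led Chow ff 4 at 17.4%, and Igkv8-19 led HFD ff 4 at 12.3%. In Chow Vill 4 Igkv4-57-1 came after Igkv1-110 with 15.0%, and in HFD Vill 4 Igkv10-94 came after Igkv1-117 with 12.7%.

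**Figure D4:**
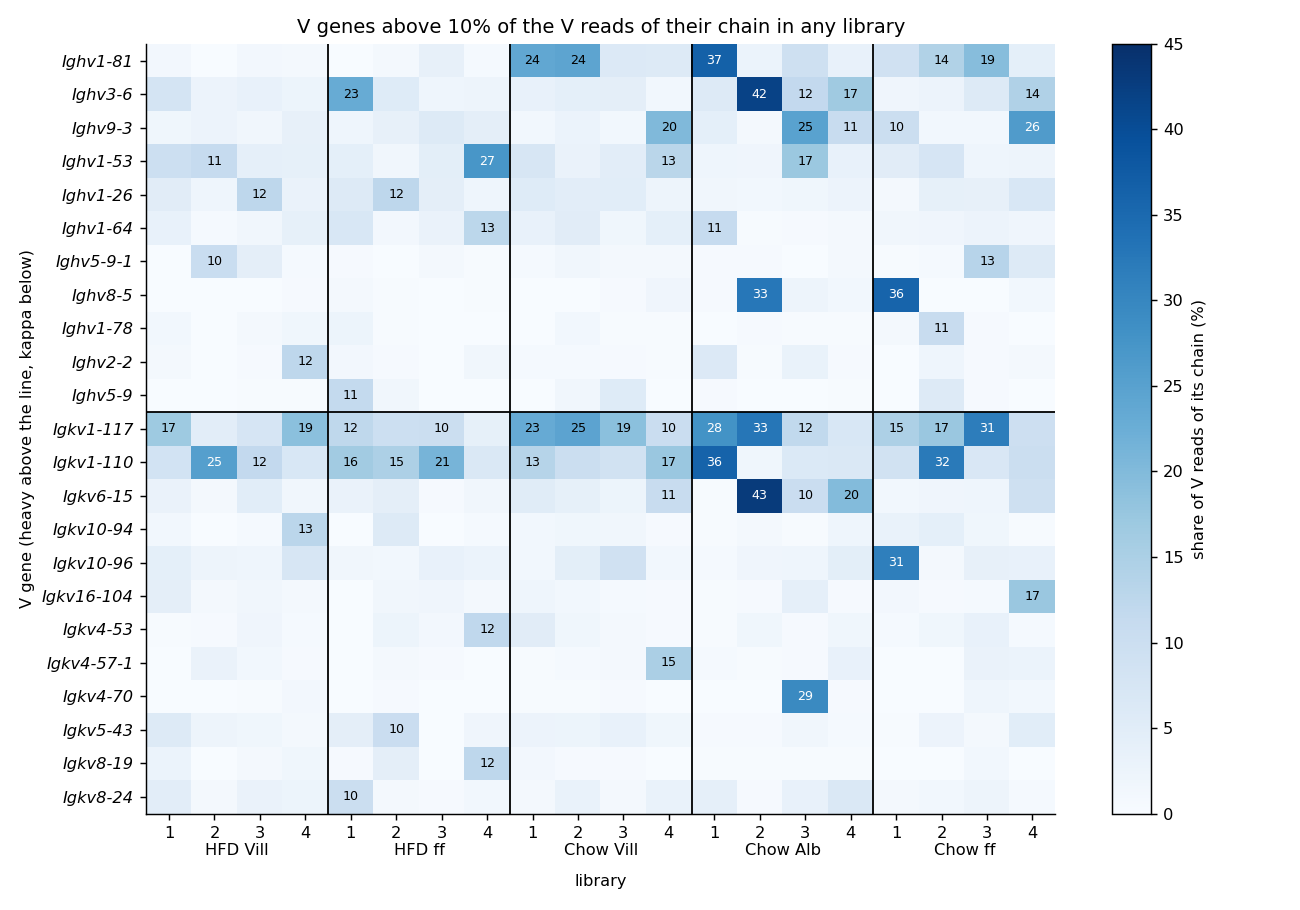
Share (%) of the V reads of its chain for each of the 23 V genes above 10% in any library, with libraries in columns by group and heavy genes above kappa genes. Numbers are printed from 10% upward. In the rows of 3 heavy and 9 kappa genes a single library passes 10%, and the rows of Igkv1-117 and Igkv1-110 pass 10% in every group.

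Similarity in V gene use was compared within and between groups. The overlap of heavy V use, the smaller of the shares of each gene in a pair of libraries summed over genes, had a median of 42.5% over 30 pairs of the same group, 42.5% over 64 pairs of the same diet with different genotype, and 41.1% over 96 pairs of different diet. For kappa the medians were 50.3%, 51.2% and 48.6%. The highest heavy overlap was 68.3%, between Chow Vill 1 and Chow Vill 2, and the lowest was 18.6%, between HFD Vill 2 and Chow Alb 2. Pairs share libraries and depth differs between diets, so these are descriptions.

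V gene diversity was given as the effective number, the number of equally used genes that would give the same Shannon entropy. For heavy V genes it was 31.8, 28.1, 36.3 and 39.2 in HFD Vill and 20.8, 35.9, 33.7 and 22.9 in HFD ff. In chow colons it was 25.6, 30.9, 47.1 and 24.1 in Vill, 14.9, 7.75, 15.9 and 28.7 in Alb and 14.7, 32.6, 30.3 and 21.9 in ff. The lowest value belonged to Chow Alb 2, whose 5 most read heavy genes took 80.6% of heavy V reads, and the highest to Chow Vill 3, where they took 28.4%. The groups overlapped in every comparison within a diet.

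For kappa V genes the effective number was 28.7, 21.1, 32.8 and 29.9 in HFD Vill and 24.9, 29.7, 24.6 and 34.9 in HFD ff. In chow colons it was 22.6, 25.7, 30.6 and 22.2 in Vill, 10.1, 7.11, 17.6 and 29.0 in Alb and 15.0, 17.1, 22.9 and 27.5 in ff. Chow Alb held both the lowest value, in Alb 2, and a value near the chow maximum, in Alb 4. The most read kappa gene took 11.6% to 25.4% of kappa V reads on HFD and 17.3% to 43.0% on chow.

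Depth differed, with 496 to 4444 V reads per HFD library and 8825 to 49017 per chow library. At 496 reads each, the expected number of V genes with a read was 89.5, 84.0, 99.0 and 105 in HFD Vill and 80.5, 95.6, 89.2 and 98.0 in HFD ff. In chow colons it was 85.9, 97.2, 108 and 82.4 in Vill, 70.4, 66.1, 73.4 and 91.9 in Alb and 70.4, 89.9, 96.0 and 86.7 in ff. The diets overlapped at equal depth. They also overlapped at full depth, where HFD libraries had reads on 84 to 149 V genes and chow libraries on 128 to 186.

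**Figure D5:**
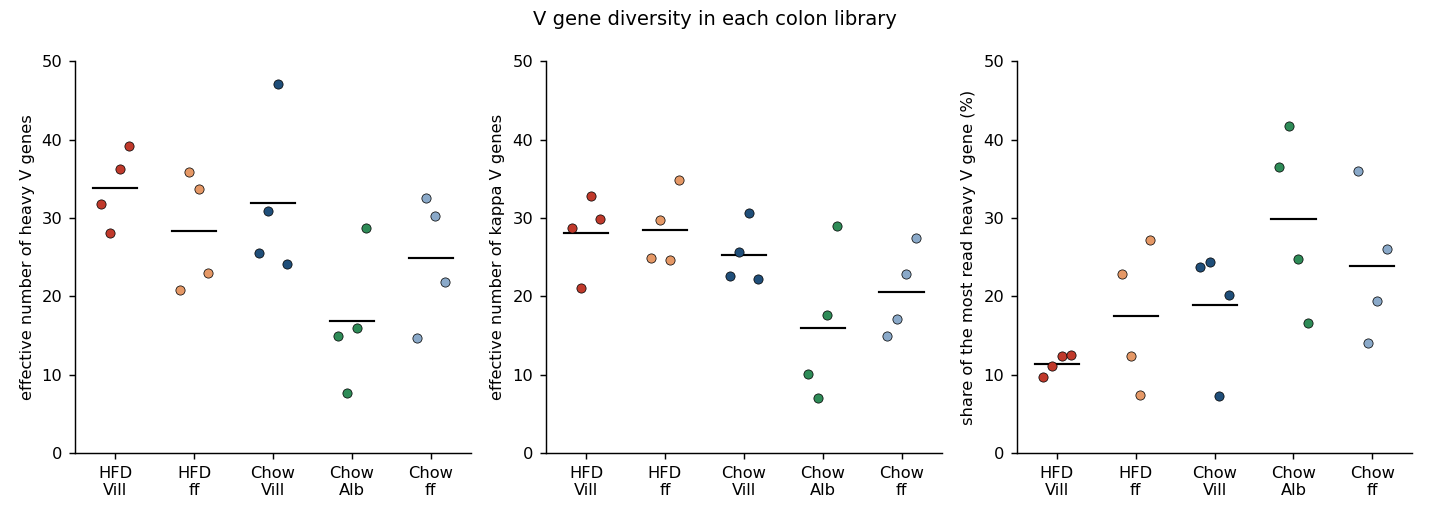
Effective number of heavy (left) and kappa (middle) V genes, and the share (%) of the most read heavy V gene (right), with points for libraries and lines for group means (4 libraries per group). Chow Alb spans 7.75 to 28.7 effective heavy genes, and the HFD libraries span 20.8 to 39.2.

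On chow, Vill was set against ff to ask what loss of Pcca from the gut epithelium changes. edgeR called no immunoglobulin gene, and DESeq2 and the authors' deposited table each called 1, the kappa gene Igkv14-130. Summed over all members, the level was 1414, 3596, 3989.6 and 4373 CPM in Vill and 6719.8, 2558, 2066 and 6726 CPM in ff, with overlapping ranges. With edgeR, 157 of the 231 members passed the expression filter and 0 were called at an adjusted p under 0.05, beside 0.00508% of all 19701 tested genes. The labels do not say whether the 4 samples of a group came from separate litters, so p-values measure the spread between these samples. Of the members, 8 had an unadjusted p under 0.05, or 5.10% of 157, beside 1.9% of all genes. The median log2 fold change was -0.03 over tested members (79 of 157 lower) and 0.00 over all genes. Leaving out Chow ff 4 gave a median of 0.30 and leaving out Chow Vill 3 gave -0.46.

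Igha had a log2 fold change of -0.51 in Chow Vill (SE 0.50, adjusted p = 1.00, edgeR), Igkc -0.21 (SE 0.42) and Ighm -0.36 (SE 0.91). Jchain stood at -0.39 (SE 0.43). The smallest p among V genes belonged to Igkv3-10, with 0, 0.468, 1.16 and 0.230 CPM in Vill and 1.36, 4.90, 3.85 and 7.67 CPM in ff (log2 -3.21, adjusted p = 1.00, edgeR). Igkv4-58 had 13.2, 1.77, 5.47 and 1.46 CPM in Vill and 0.579, 0.848, 1.13 and 1.02 CPM in ff (log2 2.61), and Ighv1-47 had 8 reads in Vill and 69 in ff (log2 -3.06). These 3 were the only tested members whose groups did not overlap, beside 1.35% of all genes. The other 7 of the 10 smallest p-values ran from 0.0203 to 0.0562 before adjustment, for Ighv14-1, Ighv2-3, Ighv1-66, Igkv3-4, Igkv16-104, Ighv5-9-1 and Igkv3-5. Igkv3-5 and Igkv3-10 are near copies, with 6 differing positions in the V exon, and how reads shared by them were assigned was not tested. Without Chow ff 4, which holds most Igkv16-104 reads, its log2 fold change moved to 0.12, and Igkc turned to 0.02 without Chow Vill 1 and Ighm to 0.24 without Chow ff 4.

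DESeq2, which applied another filter, called 1 member in this comparison, Igkv14-130 (chromosome 6, 67768030 to 67768495), beside 0.0116% of all genes. It had 1, 0, 0 and 0 reads in Chow Vill and 33, 110, 7 and 11 reads in Chow ff (DESeq2 log2 -7.15, adjusted p = 0.0275). The ratio of Vill to ff was 0.00601 (0.000151 to 0.0340, counting error only). In Chow Alb it had 0, 0, 0 and 4 reads, and on HFD 0, 0, 15 and 3 reads in Vill and 0, 2, 4 and 0 reads in ff. The gene did not pass edgeR's expression filter. It is also the only member called here in the authors' deposited table, which called 0.0219% of its genes.

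Alb colons on chow were set against the same ff libraries to ask the same of a deletion in the liver. The summed level was 1551, 2743, 2331 and 5491 CPM in Alb, against 6719.8, 2558, 2066 and 6726 CPM in ff. The median log2 fold change over tested members was -0.75, with 116 of 157 lower, beside a median of 0.00 over all genes. All 11 tested C genes had a lower fitted mean in Alb. None was called: edgeR called 0 of 157 members, beside 0% of all 19701 genes, and 18 members (11.5%) had an unadjusted p under 0.05, beside 4.4% of all genes. The median was -0.39 without Chow ff 4 and -1.56 without Chow Alb 4, the Alb library with the most immunoglobulin reads. Without Chow Alb 4, 44 of 160 members had an unadjusted p under 0.05, beside 1241 of all 20137 genes. Leaving out any other library gave between 14 of 158 members (without Chow ff 4) and 21 of 161 (without Chow Vill 1). All genes stood at 624 of 20114 and 919 of 20125 in those 2 fits.

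Igha had a log2 fold change of -0.63 in Chow Alb (SE 0.50, adjusted p = 0.990, edgeR), Igkc -0.48 (SE 0.42), Ighm -0.94 (SE 0.91) and Jchain -0.59 (SE 0.43). Ighv1-20 had 0, 1, 7 and 0 reads in Alb and 25, 198, 15 and 46 reads in ff (log2 -4.97, adjusted p = 0.990, edgeR), and Igkv3-5 had 0.104, 0.335, 0.145 and 0.442 CPM in Alb and 1.59, 1.01, 0.550 and 2.75 CPM in ff (log2 -2.49). These were the 2 tested members whose groups did not overlap, beside 2.82% of all genes. Igkv3-5 is a near copy of Igkv3-10, at 98.1% identity over the V exon. The next smallest p-values belonged to Igkv4-63, Igkv4-59, Ighv5-9-1, Igkv4-80, Ighv1-78, Igkv9-129, Ighv2-3 and Igkv5-43, all lower in Alb, with unadjusted p from 0.0126 to 0.0336. Several of these were high in a single ff library: Ighv1-78 took 10.9% of heavy V reads in Chow ff 2 and Ighv5-9-1 took 13.3% in Chow ff 3. DESeq2 called 0 members, beside 0.0116% of all genes, and the authors' deposited table called Ighv1-20, beside 0.0156% of its genes.

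Chow Vill and Chow Alb were also set against each other. The median log2 fold change over tested members was 0.58 with 53 of 157 lower, and 0.02 over all genes. edgeR called 0 members, beside 0.00508% of all genes. An unadjusted p under 0.05 was found for 20 members (12.7%), beside 8.87% of all genes. Without Chow Alb 4 the median was 1.55. There 43 of 160 tested members had an unadjusted p under 0.05, beside 2083 of all 20137 genes. Chow Alb 4 was the Alb library with the most immunoglobulin reads. Leaving out any other library gave between 11 of 159 members (without Chow Alb 3) and 20 of 161 (without Chow Vill 1). All genes stood at 1279 of 20128 and 1184 of 20125 in those 2 fits.

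The V genes with the smallest p were mostly higher in Vill. Igkv4-58 had 13.2, 1.77, 5.47 and 1.46 CPM in Vill and 0.0347, 0.747, 0.399 and 0.948 CPM in Alb (log2 3.34, adjusted p = 0.459, edgeR). Igkv4-80 had 1.38, 0.222, 8.42 and 7.32 CPM in Vill and 0.104, 0.206, 0.290 and 0.126 CPM in Alb (log2 4.55, adjusted p = 0.459, edgeR), and Igkv9-123 had 4, 169, 59 and 8 reads in Vill and 0, 6, 0 and 0 reads in Alb (log2 4.97, adjusted p = 0.492, edgeR). DESeq2 called these 3 members at adjusted p = 0.00564, 0.00206 and 0.0355, beside 0.298% of all genes. The authors' deposited table called the same 3 and Igkv5-43 (log2 1.92) and Ighv3-6 (log2 -2.68), beside 0.209% of its genes.

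Ighv1-12 had 17, 216, 25 and 413 reads in Vill and 0, 6, 0 and 12 reads in Alb (log2 5.30, adjusted p = 0.482, edgeR). Ighv3-6 ran the other way, with a fold change of -2.66 on the log2 scale (adjusted p = 0.544, edgeR). Chow Alb 2 had its highest share of heavy V reads, at 41.7%, but not its highest CPM. Ighv1-58, Ighv3-1, Igkv3-1 and Ighv5-12 had log2 fold changes of 3.37, 2.30, 3.52 and 3.65 and Ighv1-47 of -2.69, none of them called. Igha differed by 0.12 (SE 0.50, adjusted p = 0.971, edgeR) and turned to -0.10 without Chow Vill 4 and -0.09 without Chow Alb 1. Ighv1-12, Igkv12-89, Igkv4-58 and Igkv5-43 were above Alb in every Vill library, and no member was below it in every one, beside 4.71% of all genes without overlap.

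On HFD, neither edgeR nor DESeq2 called an immunoglobulin gene between Vill and ff. The median summed level was 409 CPM over HFD libraries and 3169 CPM over chow libraries. The summed level was 394, 139.5, 973 and 751 CPM in Vill and 152, 734, 420.1 and 397 CPM in ff. edgeR tested 62 members and called 0, beside 0.00564% of all 17715 genes. None had an unadjusted p under 0.05, beside 3.45% of all genes, and none lacked overlap between the groups, beside 2.13%. Without HFD Vill 2, 10 of 81 tested members had an unadjusted p under 0.05, beside 535 of all 18139 genes. Without HFD ff 2 it was 5 of 73 members, beside 1306 of all 18076 genes. In both, 0 members were called. DESeq2 called 0 members, beside 0.0129% of all genes, and the authors' deposited table called none, beside 0.0128%. The median log2 fold change was 0.21 with 25 of 62 lower, and 0.00 over all genes. It was -0.19 without HFD Vill 4 and 0.66 without HFD ff 2. Without the libraries labelled HFD ff 1 and HFD ff 3, whose Pcca goes against their label, it was -0.03 over 104 tested members, 0 were called, and the mean summed level was 564 CPM in Vill and 566 CPM in ff.

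Igha had a log2 fold change of 0.49 in HFD Vill (SE 0.53, adjusted p = 0.932, edgeR), Igkc 0.58 (SE 0.64), Jchain 0.31 (SE 0.50) and Ighm 0.18 (SE 0.89). Without the libraries labelled HFD ff 1 and HFD ff 3, Igha was at 0.14, Igkc at 0.12, Jchain at 0.06 and Ighm at -0.51. Ighm was at -0.75 without HFD Vill 4. Jchain turned to -0.12 without HFD Vill 3. The smallest p among V genes was that of Ighv10-3, with 2, 3, 13 and 2 reads in Vill and 1, 13, 44 and 40 reads in ff (log2 -2.26, adjusted p = 0.932, edgeR). The next were Igkv5-39, Igkv8-27, Igkv6-17, Igkv10-96, Igkv3-12, Igkv4-68, Ighv1-82, Ighv1-9 and Ighv1-7, with unadjusted p from 0.100 to 0.195. Igkv6-17 had 11, 2, 204 and 22 reads in Vill and 3, 27, 3 and 30 reads in ff, and its log2 fold change of 2.15 turned to -0.31 without HFD Vill 3.

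Whether the Vill effect differed between diets was tested on 16 libraries. edgeR tested 148 members and called 0, beside 0% of all 19516 genes, and DESeq2 also called 0, beside 0% of all genes. An unadjusted p under 0.05 was found for 12 members (8.11%), beside 2.54% of all genes. Igha had a difference of 1.00 in log2 fold change, HFD minus chow (95% interval -0.67 to 2.67, adjusted p = 1.00, edgeR), and Igkc of 0.79 (-0.93 to 2.52). Without the libraries labelled HFD ff 1 and HFD ff 3 these differences were 0.65 and 0.33. Intervals of this width leave a wide range of sizes possible. The smallest p-values belonged to Ighv5-9-1, Ighv14-1, Ighv2-6, Ighv1-9, Ighv2-9, Ighv1-66, Ighv2-2, Ighv1-78, Ighv14-2 and Igkv3-2. The largest of these differences, 8.63 for Ighv2-9, rested on 9, 0, 27 and 0 reads in HFD Vill and 0, 0, 0 and 0 reads in HFD ff, with 1, 1, 22 and 6 reads in Chow Vill and 0, 84, 2 and 16 reads in Chow ff. A fitted value against a group without reads depends on the prior count and is no bound.

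Lists of genes around the antibody response were read in the same fits, and none of their members was called in any comparison. In HFD Vill against HFD ff the median log2 fold change was 0.20 for 16 tested B cell genes and 0.10 for 14 tested plasma cell genes. The B cell median was -0.65 without the libraries labelled HFD ff 1 and HFD ff 3, and -0.85 without HFD Vill 4. It moved the other way, to 0.96 without HFD ff 2 and 0.57 without HFD Vill 2. For Chow Vill against Chow ff the median was -0.31 for 17 B cell genes, 16 of them lower, and -0.10 for 16 plasma cell genes. For Chow Alb against Chow ff it was -0.80 for B cell genes, 16 of 17 lower, and -0.72 for 9 lymphoid follicle genes, all lower. These values moved with single libraries. Without Chow ff 4 the B cell median was 0.34 for Vill and -0.14 for Alb, and the follicle median for Alb -0.13. Without Chow Alb 4 the B cell and follicle medians for Alb were -2.73 and -2.01. Germinal centre and class switch genes had medians of -0.03, 0.23 and -0.14 in those 3 comparisons, and genes of IgA induction, homing and export 0.10, -0.10 and -0.26. The B cell and follicle medians thus had the sign of the immunoglobulin median in Chow Alb. In Chow Vill against Chow ff the follicle median was -0.26. The immunoglobulin median there, -0.03 with 79 of 157 lower, had no clear direction and was 0.30 without Chow ff 4. On HFD the B cell median was 0.20, the follicle median -0.08 and the immunoglobulin median 0.21. The 2 comparisons on chow share the ff libraries.

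Markers of other tissue components were read beside these lists, and none of their genes was called. In HFD Vill against HFD ff the median log2 fold change was -0.82 for T cell genes (7 of 7 lower), -1.71 for fat, -1.14 for small intestine enterocytes, -0.58 for red blood cells, -0.14 for macrophages, -0.21 for smooth muscle, 0.20 for colon epithelium, 0.51 for the single pancreas gene tested and 0.18 for squamous epithelium. The T cell value rested on the library labelled HFD ff 3, and was -0.97 without HFD ff 1. The enterocyte value rested on the libraries labelled HFD ff 1 and HFD ff 3. The summed T cell level was 5.34, 4.87, 10.4 and 24.9 CPM in HFD Vill and 13.5, 10.1, 51.1 and 7.86 CPM in HFD ff, and that of enterocyte genes 68.7, 27.2, 27.9 and 41.3 CPM in HFD Vill and 511, 19.7, 601 and 38.1 CPM in HFD ff. Without the library labelled HFD ff 3 the T cell median was 0.03, with 2 of 7 lower, and without both libraries the enterocyte median was 0.20, that of smooth muscle 0.41, of pancreas -0.21 and of squamous epithelium -0.71. In Chow Vill against Chow ff the medians of 8 of these 9 lists lay between -0.49 and 0.73, and that of squamous epithelium at -1.34. In Chow Alb against Chow ff the medians were -0.40 for T cell genes (7 of 7 lower), 0.31 for smooth muscle (5 of 5 higher) and 4.28 for the 2 squamous genes tested, of which Krt5 was high in Chow Alb 2 alone; without that library their median was 0.07. Their part in the immunoglobulin values was not tested.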

How the data were processed

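Gene counts of 12 chow and 8 HFD colon libraries were deposited as 2 tables. Reads were aligned with HISAT2 2.0.5 to mm39 and counted with featureCounts 1.5.0-p3, per the submitters' processing notes, which also name DESeq2 1.20.0 and edgeR 3.22.5. The annotation release and the strand setting are not given in the sources used here. The raw count columns were used as the authors deposited them, 28 further per-sample columns were not used, and gene length was taken from the deposited tables. The authors' log2 fold changes and adjusted p-values were copied from their deposited tables for members only.

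Counts were scaled by TMM and tested with edgeR 4.0.16 (quasi-likelihood, filterByExpr, Benjamini-Hochberg over all tested genes) in R 4.3.3, 1 fit per table with all its groups, and 1 fit of 16 libraries for the difference between diets. Alternatives were DESeq2 1.42.0, limma-voom 3.58.1, other scalings, no filter, a replicate block and leaving out each library. The fits were tested on simulated data first. Shares were compared by exact permutation tests, and correlations by permutation (python 3.11.15, numpy 2.4.6, scipy 1.17.1, pandas 2.3.3). Equal-depth V gene numbers are expected values at a fixed number of reads.

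Groups came from the sample labels. Named genes were all C genes, per comparison the V genes called and the 10 with the smallest p, the 5 with the highest mean per group, those above 10% of their chain in any library, and the listed partner genes, some of which are not reported here. Members and lists were chosen with earlier results of these data known.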

Additional observations from a re-analysis of the deposited data

Results flagged for a closer look

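Of 180 sets of 4 libraries examined, 30 had 1 library whose gap to the nearest other exceeded the 95% critical value of Dixon's test. Under the assumptions of the test, chance flags about 1 in 20 groups. The flagged V genes were among those picked for a high share in at least 1 library. That choice favours a lone high library, so the count of flags cannot be compared with this rate. None of the flags was weighed further.

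Chow Alb 4 stood apart in its group for B cell genes, with Cd79a at 38.3 CPM and Ms4a1 at 43.4 CPM. It also did so for Iglc1 at 148 CPM and for Ighe at 0.126 CPM, which is only 4 reads. Chow Vill 4 stood apart for Iglc2 at 169 CPM, a lambda share of 22.4%, Ighv9-3 at 20.1% and Igkv4-57-1 at 15.0% of the V reads of their chain. Chow Vill 1 was the low library of its group for Jchain at 211 CPM and Mzb1 at 0.289 CPM. On HFD, Vill 4 had Ighg2c at 12.9 CPM and Ighe at 0.0453 CPM (1 read), and ff 2 had Ighg1 at 3.67 CPM and Ighe at 0.273 CPM (7 reads).

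Single V genes made up the other cases, given as percent of the V reads of their chain. Heavy genes were Ighv8-5 at 32.6% in Chow Alb 2 and 36.0% in Chow ff 1, Ighv1-53 at 17.2% in Chow Alb 3 and 27.2% in HFD ff 4, and Ighv1-64 at 11.2% in Chow Alb 1. Further heavy genes were Ighv1-78 at 10.9% in Chow ff 2, Ighv2-2 at 12.5% in HFD Vill 4, and Ighv3-6 at 22.9% and Ighv5-9 at 11.4% in the library labelled HFD ff 1. Kappa genes were Igkv1-110 at 36.1% in Chow Alb 1 and 32.1% in Chow ff 2, Igkv10-96 at 31.2% in Chow ff 1 and Igkv16-104 at 17.4% in Chow ff 4. The remaining kappa genes were Igkv4-70 at 29.5% in Chow Alb 3, Igkv8-24 at 10.1% in the library labelled HFD ff 1 and Igkv10-94 at 12.7% in HFD Vill 4.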

How the results depend on the processing

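In every setting of edgeR and limma-voom, 0 immunoglobulin genes were called. DESeq2 called 1 for Chow Vill against Chow ff and 3 for Chow Vill against Chow Alb. The number of all genes called was 4, 4, 65 and 4 with DESeq2 for Chow Vill against ff, Chow Alb against ff, Chow Vill against Alb and HFD Vill against ff, where edgeR called 1, 0, 1 and 1. It was 2 without a filter for Chow Vill against ff, and 2 on HFD without the libraries labelled HFD ff 1 and HFD ff 3, a choice made after seeing the data. The replicate block gave 0 immunoglobulin genes in every comparison and 0 genes in all for Chow Vill against ff and against Alb. Deviations from the group means were correlated between libraries of different groups. Those with the same number had a median r of -0.26 (-0.69 to 0.60) on chow and 0.16 (-0.38 to 0.48) on HFD. Those with different numbers had a median r of 0.06 (-0.71 to 0.72) on chow and -0.17 (-0.54 to 0.55) on HFD. These wide, overlapping ranges cannot decide whether the numbers pair the samples.

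Ighm on HFD, 0.18 in log2 fold change, was -0.38 with limma-voom, -0.00477 with the replicate block and -0.51 without the libraries labelled HFD ff 1 and 3. The cause was not tested. Leaving out each library gave ranges in log2 fold change of -0.75 to 0.64 for Ighm on HFD, -0.12 to 0.59 for Jchain on HFD and -0.31 to 2.73 for Igkv6-17 on HFD. They were -0.87 to 0.24 for Ighm, -0.42 to 0.017 for Igkc and -3.29 to 0.12 for Igkv16-104 in Chow Vill against ff, and -0.10 to 0.50 for Igha in Chow Vill against Alb. In points, they were -0.41 to 1.85 for the Igha share and -5.37 to 1.24 for the lambda share in Chow Alb against ff, -0.54 to 1.07 for the Ighm share in Chow Vill against ff, and -6.35 to 0.34 for the lambda share in Chow Vill against Alb. On HFD, V gene values rest on 496 to 4444 reads per library, which limits them. Those within a chain rest on fewer, 153 to 1386 heavy and 279 to 2636 kappa V reads. Effective numbers were taken at full depth.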
